A study of Mus musculus with 8 samples.

Results

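The transcripts of 10 nuclear receptor genes were followed through mouse monocyte differentiation, in an expression table of 48709 genes and in tables of introns that hold 108 introns of these genes among 204362. The genes were chosen by name: Nr4a1, Nr4a2, Nr4a3, Pparg, Nr1h3, Nr1h2, Rxra, Rara, Vdr and Nr3c1. Nuclear receptors are transcription factors that bind short DNA elements through a zinc finger domain, and most are switched by a small lipophilic ligand. Pparg senses fatty acids, Nr1h3 and Nr1h2 (LXR alpha and LXR beta) sense oxysterols, Rara binds retinoic acid, Vdr binds vitamin D and Nr3c1 is the glucocorticoid receptor. Rxra is the shared partner with which PPAR, LXR, retinoic acid and vitamin D receptors bind DNA. The NR4A receptors act without a classical ligand and are induced quickly by signals, and Nr4a1 is known for its need in the formation or survival of Ly6Clo monocytes.

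The series asks what intron retention does in this lineage, and holds 8 libraries of polyadenylated RNA from bone marrow. MDP, the monocyte-dendritic cell progenitor, has 1 library, labelled wild type. The common monocyte progenitor, cMoP, has 2, and Ly6Chi monocytes, which carry much Ly6C on their surface, have 2; both are described as FL_FL, taken here to mean floxed, and as wild type. Ly6Clo monocytes, with little Ly6C, have 1 library, labelled wild type. Ly6Chi monocytes with a knockout of Upf2, a core factor of nonsense-mediated decay, have 2. No label gives a strain, an age, the Cre driver or whether replicates came from separate animals, so the p-values rest on a spread between samples that may be technical. All samples but the knockout are labelled untreated, and all are labelled healthy. The labels also carry a cell type tag that names a monocytic cell line, whereas the source names give bone marrow and the growth protocol gives primary cells.

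Marker genes followed the labels for Ly6Chi against Ly6Clo. The summed level of 6 Ly6Chi monocyte markers was 10061 and 9875 TPM (a measure of transcript abundance scaled to transcript length and library) in Ly6Chi and 734 in Ly6Clo. The sum was also high in cMoP, at 6040 and 4199, and in the knockout, at 8647 and 9571. In cMoP Ly6c2 alone averaged 4196 TPM, against 3748 in Ly6Chi. Most other markers of the list were far lower in cMoP than in Ly6Chi: Fn1 averaged 10.8 against 2752, Ccr2 101 against 1379 and Vcan 0.365 against 93.3. The sum of 8 Ly6Clo markers, Nr4a1 and Cd36 among them, was 5332 in Ly6Clo and 725 and 769 in Ly6Chi. In the knockout, Upf2 itself stood at 20.4 and 22.5 TPM against 20.2 and 18.2 in control Ly6Chi. Reads spliced across the junction of exons 2 and 3, the stretch that the labels' PCR amplifies, numbered 10 and 13 against 41 and 45. Spliced reads per library ranged from 28726135 to 37591021. Coverage leaned more to the 3′ end of transcripts in both cMoP libraries (a log2 index of 0.56 and 0.83) and both knockout libraries (0.77 and 0.55) than in MDP (0.33), Ly6Chi (0.31 and 0.37) and Ly6Clo (0.33). Changes were tested with limma on log2(TPM + 1) over all 8 libraries, with adjusted p-values under 0.05 called, and the cMoP and Ly6Chi libraries each serve in more than 1 comparison. Folds are ratios of mean TPM. Log2 changes are on the log2(TPM + 1) scale, on which the change of a low gene comes out too small. In bulk RNA, fewer cells that express a gene and less RNA per cell cannot be told apart.

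Nr4a1 (chr15:101254269-101274795, plus strand; this and all positions are on mm10) was low in the progenitors, higher in Ly6Chi and highest in Ly6Clo. It stood at 4.53 TPM in MDP, at 7.03 and 1.17 in cMoP, at 97.3 and 193 in Ly6Chi and at 785 in the Ly6Clo library, where it was the gene of rank 192 by level. The progenitor values overlap, every Ly6Chi value lies above every progenitor value, and the Ly6Clo value lies above all. From cMoP to Ly6Chi Nr4a1 rose 35.4-fold, by 5.05 ± 0.68 (SE) on the log2 scale (limma, adjusted p = 0.00248). From Ly6Chi to Ly6Clo the mean was 5.41-fold higher (log2 change 2.51 ± 0.84), which did not pass (limma, adjusted p = 0.115). Without cMoP replicate 1 or 2 in the fit, the adjusted p was 0.0405 or 0.0411 (limma), and over all alternatives it ranged from 0.0405 to 0.362.

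The relatives of Nr4a1 were scarce. Nr4a2 (chr2:57106830-57124003, minus strand) ranged from 0.88 TPM in cMoP replicate 2 to 5.92 in Ly6Chi replicate 2, its groups overlapped, and it passed in no comparison. Nr4a3 (chr4:48045153-48086447, plus strand) was at 0.51 TPM in Ly6Clo and at most 0.14 elsewhere, under the minimum of 1 TPM in 2 libraries, so it was not tested. Of the 10 genes, 9 were tested.

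The 3 promoters of the NR4A genes are shown because they share a feature that the choice of genes did not use: repeated copies of TGACG, the core of the cAMP response element that signal-induced genes carry. Capitals mark TGACG on either strand, the bases run 5′ to 3′ on the gene's strand up to the first exon annotated at that start, and the sequences are RefSeq's on GRCm38.p6. The positions are chr15:101266596-101266845 (plus strand) for Nr4a1, before the start of 2 annotated transcripts and inside an intron of one that starts further upstream, chr2:57124004-57124253 (minus strand) for Nr4a2 and chr4:48045055-48045152 (plus strand) for Nr4a3.
Nr4a1: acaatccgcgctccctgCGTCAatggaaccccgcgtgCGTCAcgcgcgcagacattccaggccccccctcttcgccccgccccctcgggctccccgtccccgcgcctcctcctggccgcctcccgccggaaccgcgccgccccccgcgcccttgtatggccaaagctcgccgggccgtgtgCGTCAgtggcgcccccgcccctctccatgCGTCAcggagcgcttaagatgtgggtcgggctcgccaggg
Nr4a2: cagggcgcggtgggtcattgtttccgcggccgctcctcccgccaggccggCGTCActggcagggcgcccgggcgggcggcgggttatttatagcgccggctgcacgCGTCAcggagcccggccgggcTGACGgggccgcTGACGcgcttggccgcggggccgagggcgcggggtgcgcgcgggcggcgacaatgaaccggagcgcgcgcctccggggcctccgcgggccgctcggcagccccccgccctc
Nr4a3: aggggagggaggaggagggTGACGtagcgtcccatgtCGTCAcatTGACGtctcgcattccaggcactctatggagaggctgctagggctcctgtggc
In the 250 bases before the RefSeq start, each of the 3 genes held 4 matches, of which 1 of Nr4a3 lies in an annotated exon and is not shown. Among 32851 RefSeq promoters of the same length, 17.8% held at least 1 match and 0.137% (45 promoters) held 4 or more. The cut of 4 was not planned and equals the count in these 3 promoters. The promoters it was applied to were not matched for G and C. The full palindrome TGACGTCA was in none of the 3, and in 1.55% of all promoters. The windows were rich in G and C, at 74.4% for Nr4a1, 80% for Nr4a2 and 63.6% for Nr4a3. A match is a description of these letters, and no binding was measured.

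Replicates of a group differed in Nr4a1 and Nr4a2 together with other immediate early genes, the quick responders to stimulation. Nr4a1 was 6.01-fold higher in cMoP replicate 1 than 2, 1.98-fold higher in Ly6Chi replicate 2 than 1 and 1.84-fold higher in knockout replicate 1 than 2. Nr4a2 was higher in the same library of each pair, by 2.75-fold, 4.81-fold and 2.48-fold. Of 12 listed immediate early genes, 12, 12 and 10 were higher in that library. The share of all genes higher there was not counted. In cMoP other receptors were higher in replicate 1 as well, such as Nr3c1 (21.7 against 11.5 TPM) and Vdr (9.06 against 3.92), while Nr1h3 was lower (1.26 against 2.24). Atf3, a stress-induced repressor, was at 260 against 66.6 TPM in the Ly6Chi replicates, at 282 against 58.1 in the knockout and at 6.25 against 0.37 in cMoP. In the Ly6Clo library Nr4a1 was highest of all, whereas Atf3 was at 45.2 TPM and Fos at 491, below both Ly6Chi libraries (66.6 and 260 for Atf3, 1103 and 1818 for Fos). None of the 11 immediate early genes tested passed between Ly6Clo and Ly6Chi (limma), where 13% of all genes did. Their median log2 change there was 0.09, against 0.04 over all genes, so the lower Atf3 and Fos do not stand for the list. From cMoP to Ly6Chi, where 55.5% of all genes passed, 6 of the 11 rose and none fell, Atf3 by 5.40 ± 1.13 and Ier5 by 3.68 ± 0.29 on the log2 scale (limma, adjusted p = 0.0104 and 0.000502). How far handling of the cells moved these genes was not tested.

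**Figure D1:**
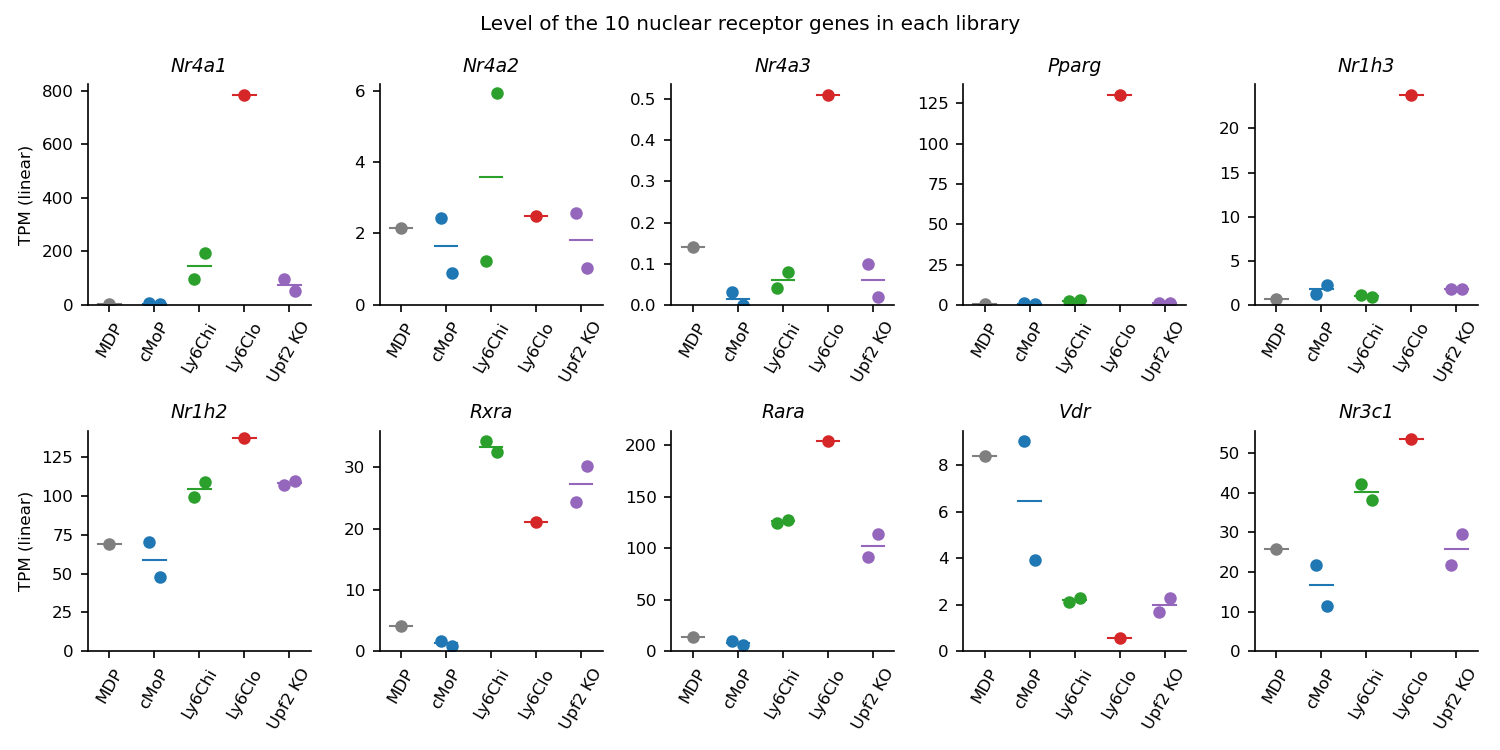
Level of each of the 10 receptor genes in TPM (linear vertical axis starting at 0, a different range in each panel) by group; points are libraries and bars are group means. Pparg (130 TPM) and Nr1h3 (23.8 TPM) stand high only in the Ly6Clo library among the 8, Rxra and Rara step up between cMoP and Ly6Chi, and Vdr is lowest in Ly6Clo at 0.56 TPM.

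Pparg (chr6:115360951-115490399, plus strand), the fatty acid receptor best known from adipocytes and alveolar macrophages, was scarce outside Ly6Clo. MDP held 0.39 TPM, the cMoP libraries 0.95 and 0.50, the Ly6Chi libraries 2.28 and 2.72, Ly6Clo 130 and the knockout libraries 0.96 and 1.04. The Ly6Clo library stands apart from the other 7, and Ly6Chi lies above MDP and cMoP without overlap. Pparg rose 52.1-fold from Ly6Chi to Ly6Clo, by 5.23 ± 0.25 on the log2 scale (limma, adjusted p = 0.000338). The earlier rise from cMoP to Ly6Chi was 3.45-fold (log2 change 1.03 ± 0.20, adjusted p = 0.00844 by limma), between levels under 3 TPM.

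Reads spliced out of 3 annotated first exons of Pparg that stand apart from its other exons were counted. A further 2 annotated first exons lie inside exons that transcripts from these starts also hold, so their reads cannot be told apart and were left out. The gene has upstream starts, which give the widely expressed PPAR gamma 1 protein, and a downstream start, which gives the adipocyte form PPAR gamma 2. In the Ly6Clo library 310 reads left the first upstream exon, from an intron at chr6:115361371-115383678, and 170 left the second upstream exon, from an intron at chr6:115362418-115383678. No read left the first exon of the downstream start (intron chr6:115422193-115439839) in any library: 0 of 480 reads of the 3 exons in Ly6Clo, which allows a share of up to 0.625%, and 0 of 508 over all 8 libraries, which allows 0.591%. The second upstream exon gave 35.4% of upstream reads in Ly6Clo (95% Wilson interval 31.3 to 39.8%) and 1 of 28 in the other 7 libraries together (3.57%, interval 0.633 to 17.7%). These intervals and limits cover counting error only, and the 7 other libraries gave at most 7 such reads each.

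The sequences before these starts are printed so that the used and the unused start can be set side by side. They are RefSeq's on GRCm38.p6, on the plus strand and cut where the annotated exon begins, at chr6:115360894-115360950 for the first upstream start, chr6:115362099-115362291 for the second and chr6:115421816-115422065 for the downstream start. Capitals mark GGGCGG (a GC box) and TTGCNNAA (a C/EBP motif) on either strand.
Pparg upstream start 1: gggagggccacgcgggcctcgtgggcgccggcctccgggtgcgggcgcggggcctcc
Pparg upstream start 2: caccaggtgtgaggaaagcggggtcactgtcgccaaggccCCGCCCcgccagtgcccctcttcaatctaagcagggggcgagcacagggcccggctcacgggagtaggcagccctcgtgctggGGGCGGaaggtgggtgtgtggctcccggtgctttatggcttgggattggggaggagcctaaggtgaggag
Pparg downstream start: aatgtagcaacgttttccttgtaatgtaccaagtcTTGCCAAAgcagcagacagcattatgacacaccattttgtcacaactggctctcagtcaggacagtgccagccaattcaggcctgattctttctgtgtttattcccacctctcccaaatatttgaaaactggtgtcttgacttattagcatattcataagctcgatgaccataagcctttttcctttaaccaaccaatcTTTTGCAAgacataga
The full window of 250 bases was 82.4% G and C at the first upstream start, 63.6% at the second and 40.8% at the downstream start. The printed stretches differ in length, at 57, 193 and 250 bases. The first upstream stretch held 0 GC boxes and its full window 1, and the second upstream stretch held 2. The unused downstream stretch held 2 C/EBP motifs and 0 GC boxes. Of all 32851 promoters 32.7% held a GC box and 9.56% a C/EBP motif. The sequence AGGTCA, the core that most nuclear receptors bind, occurred once in each upstream window within annotated exon sequence, and in 14% of all promoters. Also searched for on both strands were AAAGGTCA (the NR4A site) and GAGGAAGT (a PU.1 motif), found in none of these 6 windows and in 1.34% and 2.44% of all promoters.

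**Figure D2:**
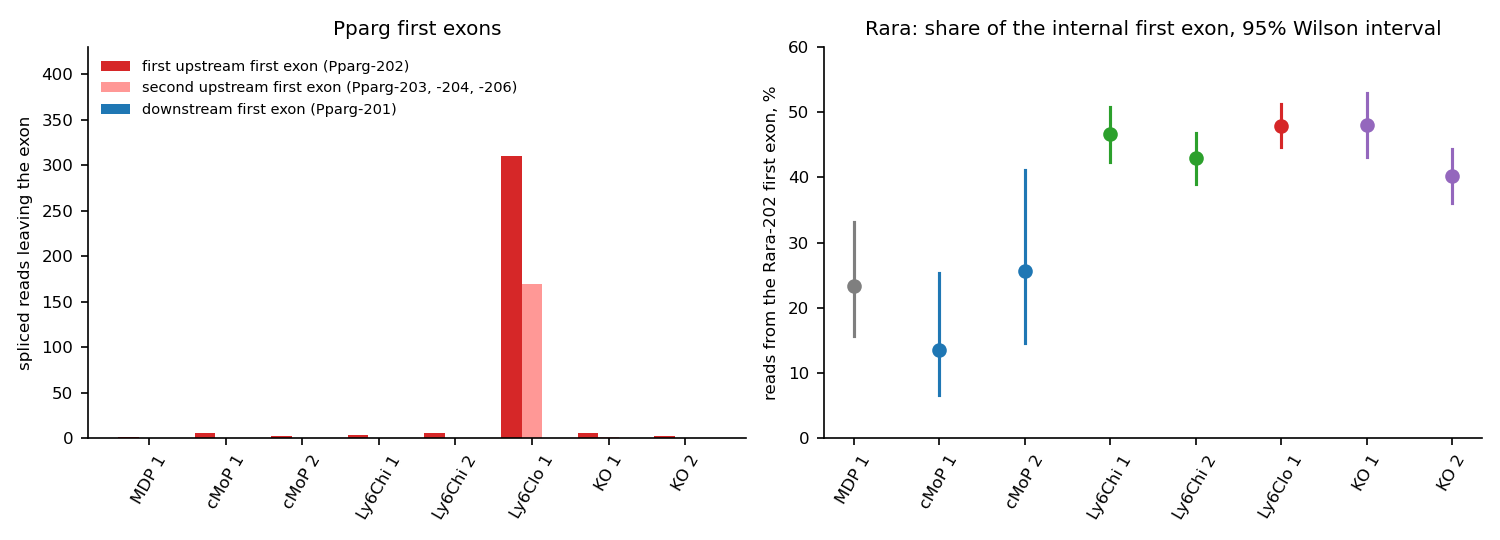
Left, spliced reads leaving 3 first exons of Pparg in each library (vertical axis, reads): the Ly6Clo library holds 310 and 170 reads of the upstream exons and the downstream exon has 0 in all 8. Right, percent of Rara reads that come from the internal first exon, by library with 95% Wilson intervals: 13.5 to 25.6% in MDP and cMoP and 40.2 to 48.0% in the monocyte libraries.

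The LXR pair split. Nr1h3, whose product LXR alpha is typical of macrophages, lay at chr2:91184061-91202834 (minus strand). MDP held 0.62 TPM, the cMoP libraries 1.26 and 2.24, the Ly6Chi libraries 1.12 and 0.89, Ly6Clo 23.8 and the knockout libraries 1.74 and 1.84. The Ly6Clo value is the only one above 2.24 TPM. Nr1h3 rose 23.7-fold from Ly6Chi to Ly6Clo (log2 change 3.63 ± 0.28, limma, adjusted p = 0.00116), and its other changes did not pass. Nr1h2 (chr7:44549616-44553951, minus strand), whose product LXR beta is found in most tissues, was present throughout. MDP held 69.2 TPM, the cMoP libraries 70.2 and 47.6, the Ly6Chi libraries 99.1 and 109, Ly6Clo 137 and the knockout libraries 107 and 109. Its progenitor values lie below all monocyte values, and it rose 1.77-fold from cMoP to Ly6Chi (log2 change 0.83 ± 0.20, limma, adjusted p = 0.0153). On the TPM scale, which is per transcript length, the Ly6Clo library thus held more Nr1h2 (137) than Nr1h3 (23.8).

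The shared partner Rxra (chr2:27676440-27762957, plus strand) and the retinoic acid receptor Rara (chr11:98927818-98974942, plus strand) rose between cMoP and Ly6Chi. For Rxra, MDP held 4.11 TPM, the cMoP libraries 1.76 and 0.82, the Ly6Chi libraries 34.3 and 32.5, Ly6Clo 21.1 and the knockout libraries 24.4 and 30.3. It rose 25.9-fold from cMoP to Ly6Chi, by 3.94 ± 0.25 on the log2 scale (limma, adjusted p = 0.000277). For Rara, MDP held 13.8 TPM, the cMoP libraries 10.4 and 5.99, the Ly6Chi libraries 125 and 127, Ly6Clo 204 and the knockout libraries 91.6 and 114. It rose 15.4-fold at the same step, by 3.84 ± 0.25 on the log2 scale (limma, adjusted p = 0.000309). For both genes the 3 progenitor values lie below all 5 monocyte values, the order of MDP above cMoP did not pass (limma, adjusted p = 0.0957 for Rxra and 0.194 for Rara), and nor did their opposite directions from Ly6Chi to Ly6Clo (log2 change -0.64 ± 0.30 for Rxra and 0.69 ± 0.31 for Rara, adjusted p = 0.238 and 0.214 by limma).

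The starts of Rara were used in different shares in progenitors and monocytes, a difference that was not tested. One annotated transcript begins at an internal first exon and joins (intron chr11:98961134-98966346) an exon that is also reached from upstream. Reads from the internal exon made up 23.3% of the reads into that shared exon of MDP (20 of 86) and 13.5% and 25.6% of cMoP (7 of 52 and 10 of 39). The share was 46.6% and 42.9% for Ly6Chi (243 of 522 and 270 of 630), 47.9% for Ly6Clo (437 of 912) and 48.0% and 40.2% for the knockout. The 3 progenitor shares lie below the 5 monocyte shares. The 95% Wilson interval of cMoP replicate 2 reached 41.1% and met those of Ly6Chi replicate 2 (39.0 to 46.8%) and knockout replicate 2 (36.1 to 44.4%), while those of MDP (up to 33.2%) and cMoP replicate 1 (up to 25.3%) met none. Coverage lean moves with part of this contrast, in cMoP but not in MDP, whose lean was that of Ly6Chi. The knockout libraries, with shares of 48.0% and 40.2%, leaned at 0.77 and 0.55, beside 0.56 and 0.83 in cMoP. For Rxra, of the 4 first exons annotated to join its shared next exon, reads left 1, with 51 and 75 in Ly6Chi, 27 in Ly6Clo and 1 to 6 in the progenitors.

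Vdr and Nr3c1 moved less. For Vdr, the vitamin D receptor (chr15:97854425-97910630, minus strand), MDP held 8.39 TPM, the cMoP libraries 9.06 and 3.92, the Ly6Chi libraries 2.14 and 2.29, Ly6Clo 0.56 and the knockout libraries 1.68 and 2.30. Every monocyte value lies below every progenitor value. Vdr fell by 1.13 on the log2 scale from cMoP to Ly6Chi (SE 0.36, limma, adjusted p = 0.0384), and the lower Ly6Clo value did not pass (log2 change -1.04 ± 0.44, adjusted p = 0.188). For Nr3c1, the glucocorticoid receptor (chr18:39410545-39519421, minus strand), MDP held 25.7 TPM, the cMoP libraries 21.7 and 11.5, the Ly6Chi libraries 42.1 and 38.1, Ly6Clo 53.4 and the knockout libraries 21.8 and 29.6. The wild-type monocytes lie above the progenitors, while the knockout overlaps them. Nr3c1 rose 2.42-fold from cMoP to Ly6Chi (log2 change 1.29 ± 0.31, limma, adjusted p = 0.0168).

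Counted over the 9 tested genes, 6 rose and 1 fell from cMoP to Ly6Chi, where 55.5% of all 13126 genes passed, 32.3% higher and 23.3% lower. Against so large a background the count by itself does not set the receptors apart. Their median log2 change was 1.03 against 0.19 over all genes. With the coverage lean as a covariate only Rxra, Rara and Vdr passed (log2 change 3.28, 3.11 and -2.10). The adjusted p was 0.0621 for Nr4a1, 0.122 for Pparg, 0.281 for Nr1h2 and 0.266 for Nr3c1 (limma). The share of all genes called in that fit was not set beside this, so whether the drop is particular to the receptors was not tested. With MDP, which leans as Ly6Chi does, in place of cMoP, an alternative chosen after seeing the data, 5 of 9 passed where 43.8% of all genes did: Nr4a1, Pparg, Rxra and Rara higher and Vdr lower.

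From Ly6Chi to Ly6Clo 2 of 9 passed, Pparg and Nr1h3, both higher, against 13% of all genes in either direction, 5.9% higher and 7.12% lower. From MDP to cMoP none of 9 passed (limma), against 3.87% of all genes, 1.35% higher and 2.52% lower, and edgeR on spliced reads per gene also called 0 receptors. In that comparison 2 of 9 receptors had an unadjusted p under 0.05 (limma), Rxra lower (0.00832) and Nr1h3 higher (0.0385). So did 3532 of all 13126 genes. Ly6Clo and MDP are single libraries, whose spread was assumed to be that of the replicated groups.

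**Figure D3:**
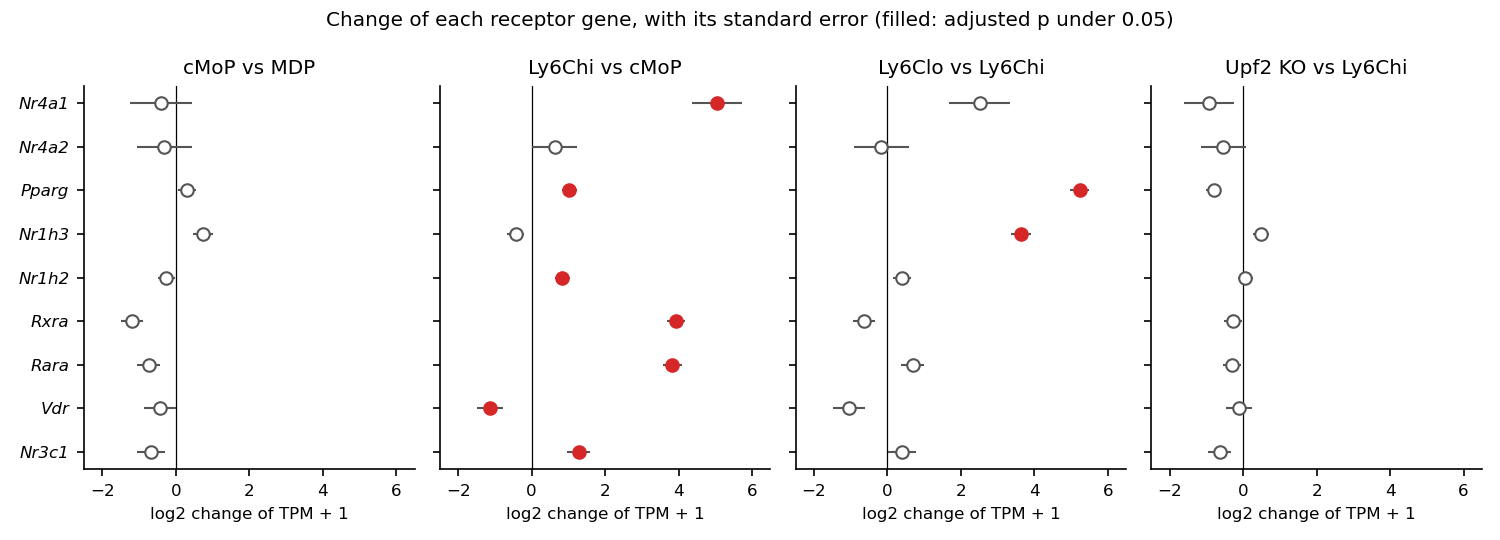
Change of each tested receptor gene in the 4 comparisons, as the log2 difference of TPM + 1 (horizontal axis) with its standard error from limma; filled points have an adjusted p under 0.05. The step from cMoP to Ly6Chi holds 7 filled points, that from Ly6Chi to Ly6Clo 2 (Pparg at 5.23 and Nr1h3 at 3.63), and the other 2 comparisons none.

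Genes that these receptors are known to control were followed from lists. Among 15 LXR targets, 11 were tested, and 4 rose and none fell from Ly6Chi to Ly6Clo, where the list's median log2 change was 0.58 against 0.04 over all genes. Of all genes 5.9% were higher and 7.12% lower there. Pltp, a phospholipid transfer protein, rose by 4.18 ± 0.20 on the log2 scale, from a mean of 25.5 TPM in Ly6Chi to 479 in Ly6Clo (limma, adjusted p = 0.000338). Apoe, the lipoprotein of cholesterol export, rose by 3.57 ± 0.35, from 728 and 857 to 9360 TPM (adjusted p = 0.00251, limma). Abca1, the cholesterol exporter, rose by 2.47 ± 0.29, from 3.39 and 3.67 to 24.1 TPM, and Mylip, which targets the LDL receptor for degradation, by 1.70 ± 0.32 (adjusted p = 0.00482 and 0.0237 by limma). Fasn, the fatty acid synthase, was at 12.8 TPM in Ly6Clo and at a mean of 13.7 in Ly6Chi. At the earlier step from cMoP to Ly6Chi 8 of the 11 rose, Apoe and Pltp among them (log2 change 6.03 ± 0.29 and 4.69 ± 0.16), and 2 fell, Fasn by 2.84 and Scd2, a desaturase, by 0.69 on the log2 scale, while Nr1h3 itself did not pass. Of all genes 32.3% were higher and 23.3% lower at that step. With MDP in place of cMoP, 4 of the 11 were higher (Apoe, Pltp, Lpl and Smpdl3a) and 2 lower (Fasn and Scd2), where 18.2% and 25.6% of all genes were; Abca1 did not pass there (limma, adjusted p = 0.549).

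Of 13 PPAR gamma targets 10 were tested, and 1 rose and 1 fell from Ly6Chi to Ly6Clo, where 13% of all genes passed. The list's median log2 change was 0.20. Cd36, a scavenger receptor that takes up fatty acids, rose from 1.22 and 2.01 to 372 TPM (log2 change 7.17 ± 0.26, limma, adjusted p = 0.000246). Fabp5, a fatty acid binding protein, fell by 1.54 on the log2 scale (SE 0.17, limma, adjusted p = 0.0039). Fabp4, its adipocyte and macrophage relative, was at 213 TPM in Ly6Clo and at most 0.47 in the other 7 libraries, and so had 1 library over 1 TPM and was not tested. From cMoP to Ly6Chi 5 of the 10 rose and 3 fell, against 55.5% of all genes called. Plin2, Cpt1a and Ucp2, which serve lipid droplets, fatty acid oxidation and mitochondrial transport, rose by 1.79, 1.89 and 1.46 on the log2 scale. Angptl4, an inhibitor of lipoprotein lipase, fell by 3.30, Fabp5 by 0.89 and Acaa2, a thiolase of fatty acid oxidation, by 0.48 on that scale (limma, adjusted p = 0.000332, 0.00393 and 0.0267).

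Glucocorticoid, vitamin D and retinoic acid targets were followed in the same way. From Ly6Chi to Ly6Clo 13% of all genes passed, 5.9% higher and 7.12% lower. Of 13 glucocorticoid targets, all tested, 3 rose and 2 fell from Ly6Chi to Ly6Clo: Ddit4, an inhibitor of mTOR signalling, by 4.25 ± 0.25 (2.64 and 2.24 to 64.2 TPM), Zbtb16, a zinc finger factor, by 3.44 ± 0.26 and Klf9 by 1.25 ± 0.27, against Fkbp5, a chaperone of the receptor, down from 36.2 and 28.4 to 15.2 TPM, and Anxa1, down from 319 and 329 to 147 TPM (limma, adjusted p from 0.0006 to 0.0353). Of 8 vitamin D targets 5 were tested, and Thbd and G0s2 rose in Ly6Clo (log2 change 1.92 ± 0.29 and 4.03 ± 0.32), where Vdr had its lowest level. Cyp24a1, a classical vitamin D target, was at most 0.01 TPM in all 8 libraries. Of 11 retinoic acid targets 3 could be tested and none passed in Ly6Clo; Tgm2, a transglutaminase, was at 141 TPM there and at most 0.98 elsewhere, again in 1 library only. Cyp26a1, which degrades retinoic acid, was at most 0.12 TPM.

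**Figure D4:**
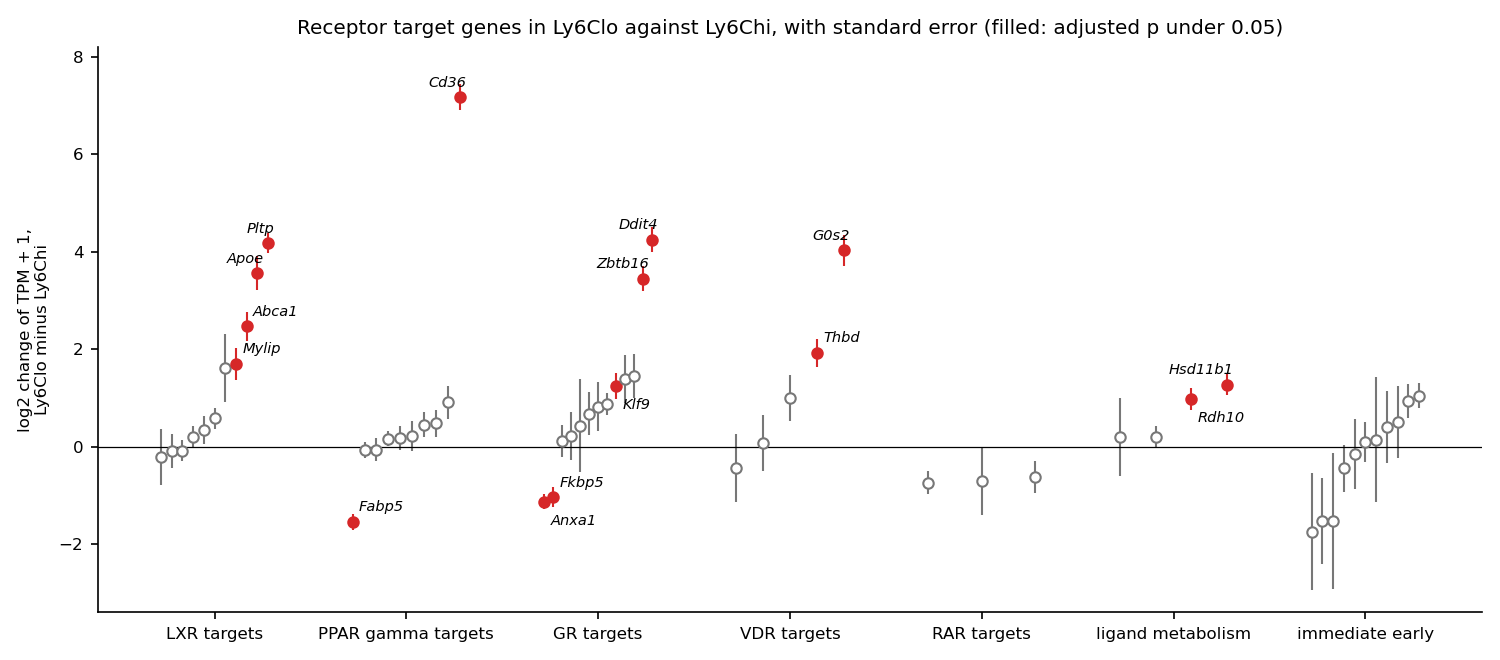
Log2 change of TPM + 1 from Ly6Chi to Ly6Clo (vertical axis, with the standard error from limma) for the tested genes of 7 lists; filled, named points have an adjusted p under 0.05. The 4 filled LXR targets lie between 1.70 and 4.18, Cd36 lies at 7.17 among PPAR gamma targets near 0, and no immediate early gene is filled.

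Markers of other cell types moved in the same Ly6Clo library. Of 9 tested macrophage markers 7 were higher there than in Ly6Chi, as were 5.9% of all genes. The summed level of the 10 listed was 1294 TPM against 243 and 250. All 10 were at 1 TPM or more there, with C1qa at 180 TPM against a mean of 1.05 and Spic, a factor of red pulp and bone marrow macrophages, at 11.9 against 0.56. Neutrophil markers summed to 2728 TPM against 1119 and 1381: S100a8 and Ly6g were higher in Ly6Clo, Mmp8 and Cd177 were lower, and S100a8 alone gave 1544 TPM. The median log2 change of the 8 neutrophil markers was 1.81, against 0.04 over all genes. Dendritic cell markers summed to 282 TPM against 117 and 159, of which Cd209a gave 168; Cd209a and Zbtb46 were higher, and Xcr1 was at 0.09. B cell markers summed to 49.1 against 17.7 and 17.6, and erythroid and megakaryocyte markers to 207 against 22.3 and 114. T and NK cell markers summed to 5.0 against 0.6 and 0.6, with 6 of 7 under 1 TPM. Macrophages express Nr1h3, Pparg and LXR targets too, and the part of these cells in the Ly6Clo values was not tested.

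The enzymes that make receptor ligands, the cofactors and the other receptors were followed as well. Cyp27a1, which makes the LXR ligand 27-hydroxycholesterol, rose from 8.05 and 0.98 TPM in cMoP to 199 and 185 in Ly6Chi (log2 change 5.51 ± 0.66, limma, adjusted p = 0.00169) and was at 219 in Ly6Clo. Ch25h, which makes 25-hydroxycholesterol, was at most 0.05 TPM. Hsd11b1, which regenerates active glucocorticoid, rose at both monocyte steps, by 1.06 ± 0.18 and 1.28 ± 0.22 (limma, adjusted p = 0.00525 and 0.0181), and also from MDP to cMoP, by 2.46 ± 0.22 (adjusted p = 0.00693 by limma). Of 11 tested coactivators 8 rose and 1 fell from cMoP to Ly6Chi, and of 8 corepressors 6 rose and 1 fell, where 55.5% of all genes passed. With MDP in place of cMoP, 2 coactivators and 1 corepressor were higher and 1 of each lower, where 18.2% of all genes were higher and 25.6% lower. The coactivator Ncoa3 rose by 2.42 ± 0.34, whereas Carm1, an arginine methyltransferase, fell by 1.15 and Hdac3, a histone deacetylase, by 0.42 on the log2 scale. From Ly6Chi to Ly6Clo the only one of these cofactors to pass was Gps2, a subunit of the corepressor complex (log2 change 0.60 ± 0.13, limma, adjusted p = 0.0411).

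Of 39 other nuclear receptors, 14 were tested, and 5 rose and 2 fell from cMoP to Ly6Chi, a share near the 55.5% of all genes called. Rarg, another retinoic acid receptor, rose as Rara did, from 10.6 and 5.14 to 104 and 85.2 TPM (log2 change 3.49 ± 0.32, limma, adjusted p = 0.000815). Ppard, the relative of Pparg, rose by 1.72 ± 0.19, and Nr0b2, an orphan receptor that represses others, fell by 2.47 on the log2 scale (limma, adjusted p = 0.00137 and 0.0004). Esrra, a regulator of mitochondrial genes, rose from 34.4 and 34.6 TPM in Ly6Chi to 61.5 in Ly6Clo (log2 change 0.82 ± 0.16, limma, adjusted p = 0.0269). Ppara, Rxrg and Nr1h4 were listed at 0 in all 8 libraries, while Rxrb, another partner receptor, was present at 53.8 to 98.0 TPM and did not pass in any comparison.

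The genes most like each receptor were ranked by Pearson's r of log2(TPM + 1) over the 8 libraries, as a description with no test. Nr4a1 was followed most closely by Nfkbiz (r = 0.99), Tec and Gsdmd, and Pparg by Bcl2a1b, Cd36 and C1qa (r = 0.99 each). Nr1h3 lay nearest to Smagp, Eno3 and Spata13 (r = 0.96 each), Rxra to Anxa4, Capn2 and Ifi27l2a, and genes near Rara included Apobr and Pbx3 (r = 1.00 each). Nr4a2 had no close follower, with Csrnp1 first at r = 0.87. For Pparg and Nr1h3 the likeness rests on the single Ly6Clo library.

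In the Upf2 knockout none of the 9 tested receptors passed (limma), against 1 gene of 13126 in all (0.00762%), which was lower; 0% were higher. EdgeR on spliced reads per gene also called 0 receptors. At an unadjusted p under 0.05 (limma) stood 1910 of all 13126 genes. Among them was 1 receptor, Pparg, with 0.96 and 1.04 TPM against 2.28 and 2.72 for the controls, a log2 change of -0.81 ± 0.20 (limma, adjusted p = 0.336). Its 2 knockout values lie below its 2 control values, as do those of Nr4a1 (95.8 and 52.2 against 97.3 and 193), Rxra, Rara and Nr3c1, whereas those of Nr1h3 (1.74 and 1.84 against 1.12 and 0.89) lie above. Of all 13126 tested genes 45.5% lay below without overlap and 22.8% above, so these 5 and 1 of 9 receptors are near the background. No gene of the lists of targets, cofactors, enzymes, immediate early genes and other receptors passed. Tsc22d3, a glucocorticoid target, was at 183 and 148 TPM against 76.9 and 80.8, and Ep300, a coactivator with a long transcript, at 18.7 and 43.5 against 93.0 and 71.5. The 3′ lean of both knockout libraries lies above that of both controls, and with lean as a covariate the log2 change was 0.31 for Rxra, 0.35 for Rara and 0.22 for Nr3c1, in place of -0.29, -0.30 and -0.64.

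Nr4a1 transcripts carried much unspliced sequence. Over its 6 introns, reads that cross an exon-intron boundary were taken as a share of these plus the spliced reads. Reads at the left and right boundary were summed against the larger spliced count. An unspliced transcript can thus count at both ends, and the share is not the unspliced fraction of transcripts. MDP had a share of 33.7%, the cMoP libraries 40.1% and 41.8%, the Ly6Chi libraries 39.6% and 24.0%, Ly6Clo 27.0% and the knockout libraries 27.2% and 42.9%, where the median of all genes in a library was 3.2 to 6.22%. In the 7 libraries with at least 100 such reads Nr4a1 lay at percentile 95.6 to 99.2 of all genes. The deposited retention ratio, intron coverage over that coverage plus spliced reads, was at least 0.1 in all 8 libraries for 5 of the 6 introns. The exception was the fourth intron (chr15:101272305-101272717), with 0.0978 in MDP and 0.0892 in Ly6Chi replicate 2. The highest mean ratio, 0.28, was that of the last intron (chr15:101273194-101273995, between coding exons) and of the first (chr15:101266972-101270082, before the start codon).

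In Ly6Chi and the knockout the replicate with more Nr4a1 had the lower share. In Ly6Chi, replicate 2 had more Nr4a1 and a share of 24.0% (95% Wilson interval 23.1 to 25%) against 39.6% (38.1 to 41.2%) in replicate 1. In the knockout, replicate 1 had more Nr4a1 and 27.2% (25.8 to 28.5%) against 42.9% (40.9 to 44.9%) in replicate 2. The cMoP intervals overlap. For Nr4a2 the Ly6Chi replicate with more of it had the higher share, at 69.2% (63.8 to 74.2%) in Ly6Chi replicate 2 against 39.6% (27.0 to 53.7%) in replicate 1. The cMoP replicate with more Nr4a2 also had its higher share, 45.8% (38.1 to 53.7%) against 16.7% (9.02 to 28.7%). Among immediate early genes Atf3 also had the lower share in the library with more of it, 25.2% against 49.9% in Ly6Chi and 14% against 34.5% in the knockout. The same held in Ly6Chi for Fos (4.09% against 9.71%) and Fosb (60.7% against 71.8%). The difference between the replicates of a group exceeds counting error, and stage cannot be told apart from it at this number of libraries.

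The other receptors fell into separate levels. Nr1h2 had 14.6 to 28.8%, with cMoP replicate 2 lowest, and lay at percentile 92.5 to 97.5. Its most retained intron, between coding exons at chr7:44552237-44552506 (270 bases), had a mean retention ratio of 0.27. Boundary reads there were uneven, with 226 and 310 at the left and 40 and 67 at the right end in Ly6Chi. Rara, at 5.09 to 7.51%, lay near the median gene, and Nr3c1 (1.81 to 4.08%) and Rxra (1.02 to 2.86%) lay below it in every library. Pparg, in the Ly6Clo library that expressed it, had 48 boundary reads beside 2625 spliced, or 1.8% (1.36 to 2.37%), at percentile 7.2, and Nr1h3 there had 12.6% (10.8 to 14.7%).

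**Figure D5:**
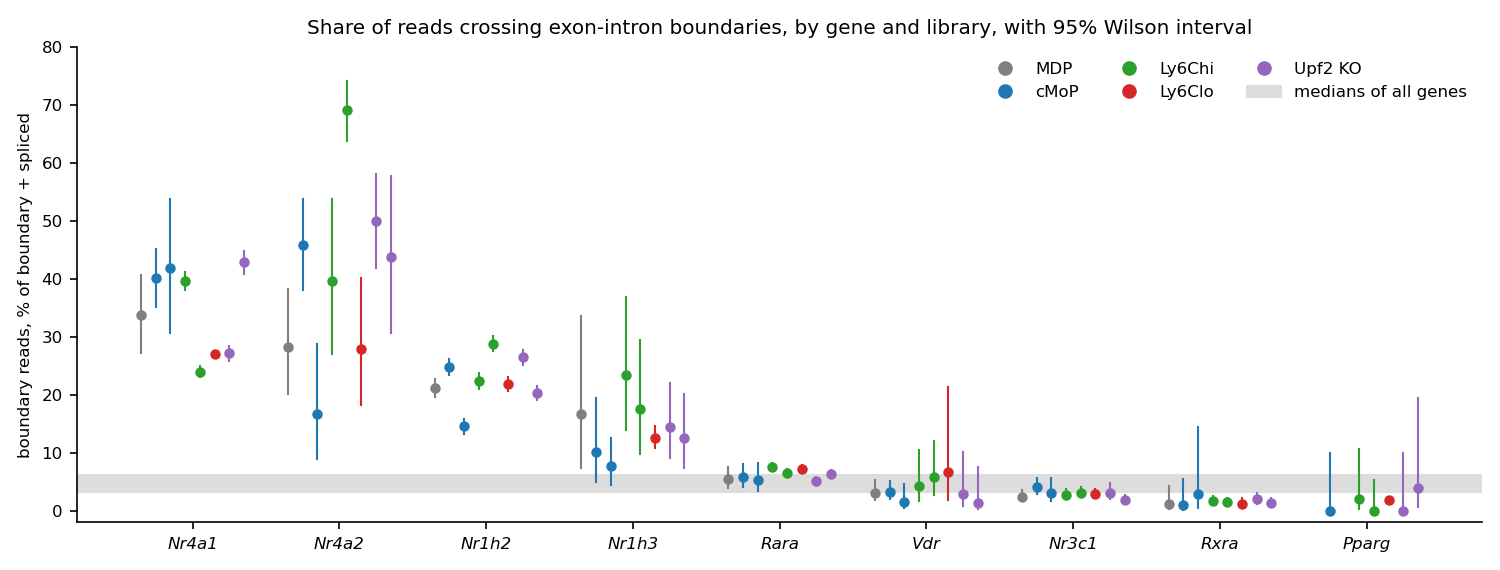
Boundary reads as a percent of boundary plus spliced reads (vertical axis) for 9 receptor genes, 1 point per library with at least 20 reads, with 95% Wilson intervals; the grey band spans the medians of all genes, 3.2 to 6.22%. Nr4a1, Nr4a2 and Nr1h2 lie above the band in every library shown, Rxra lies below it, and Pparg in Ly6Clo lies at 1.8%.

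Boundary reads relative to spliced reads were tested per intron (edgeR, quasi-likelihood), which was possible for 22 introns of the receptors (7 of Nr1h2, 10 of Rara and 5 of Nr3c1). None passed from MDP to cMoP (0% of 48132 introns called), from cMoP to Ly6Chi (0.0145%), from Ly6Chi to Ly6Clo (0%) or in the knockout (0.00208%). At an unadjusted p under 0.05 (edgeR) there were 0, 3, 0 and 0, beside 4020, 5234, 2391 and 3342 of all 48132 introns. DESeq2 also called 0 receptor introns in each comparison. The 3 were introns of Rara between cMoP and Ly6Chi, with the lowest adjusted p at 0.414. The introns of Nr4a1 did not have the required 20 reads in each of the 8 libraries, and with a minimum of 5 all 6 entered among 47 and none passed. Without cMoP replicate 1, which leaves 1 cMoP library, some introns of Nr1h2 passed from cMoP to Ly6Chi. The share of all introns called in that fit was not set beside them, so they are not read as a trait of Nr1h2.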

How the data were processed

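Polyadenylated RNA was sequenced in 8 libraries, grouped by their labels. Tools listed are FastQC and Trimmomatic, the aligner STAR 2.5.2a and RSEM, with builds mm10 and hg38, per the submitters' processing notes, which name no program for the intron tables. FPKM stands in the name of the deposited expression table, but each column adds up to 1000000 within rounding, so the authors' values were treated as TPM. In the intron tables the deposited counts are reads across exon-intron boundaries and spliced reads, the deposited signal is read coverage over the intron, and the deposited fraction is the retention ratio, which was recomputed within 0.0001 for at least 96.7% of introns.

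Expression was tested with limma 3.58.1 (R 4.3.3; trend, pseudocount 1) on 13126 genes that reached 1 TPM in 2 or more libraries. Retention was tested with edgeR 4.0.16 on the 48132 unmarked introns with at least 20 reads in every library, the left and right boundary counts summed against the larger spliced count. Both fits used all 8 libraries and Benjamini-Hochberg adjustment, and both were tested on simulated data. Boundary shares per gene were summed over non-overlapping unmarked introns. The lean index compares spliced reads at the 3′ and 5′ introns of 5007 genes. First exons were taken from GENCODE M21, and promoters from RefSeq, which matched 9 of the 10 genes. All 10 members are named, with list genes that passed (up to 4 per list and comparison by size of change) and the 3 genes with the highest Pearson r to a member among those with a mean of at least 5 TPM; other list genes were named after their values were seen. Some genes that this rule would name are not reported here. The members and lists were chosen with earlier results of these data known. Alternatives covered the pseudocount, filters, scaling, replicates, DESeq2 1.42.0 for retention and edgeR on spliced reads per gene. Tables and figures were made with Python 3.11.15, pandas 2.3.3 and scipy 1.17.1.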

Additional observations from a re-analysis of the deposited data

How the results depend on the processing

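The number of receptors called from cMoP to Ly6Chi, 7, was 4 without a filter on low values, 4 with at least 1 TPM in every library (where 4 receptors could be tested), 3 with coverage lean as a covariate and 5 with MDP in place of cMoP; leaving out 1 library at a time gave 3 to 8, with 4 without Ly6Chi replicate 1 and 3 without Ly6Chi replicate 2. Rxra and Rara were called in each of these settings in which they were tested. From Ly6Chi to Ly6Clo the 2 became 0 with at least 1 TPM in every library, where Pparg and Nr1h3 are not tested, and 5 with quantile normalisation, with only the 2 groups compared or with lean as a covariate, which added Rxra, Rara and Vdr; leaving out 1 library gave 2 to 6, with 6 without either cMoP replicate. Nr4a3, left out by the filter, was called as well without a filter and by edgeR on spliced reads per gene (3 receptors each), and from cMoP to Ly6Chi edgeR called 7, with Nr1h3 in place of Nr1h2. From MDP to cMoP the count was 0, with a range of 0 to 6 on leaving out 1 library (6 without cMoP replicate 1). In the knockout it was 0 in every setting. Retention calls were 0 in all 4 comparisons and settings but for 4 without cMoP replicate 1, so that leaving out 1 library from cMoP to Ly6Chi gave 0 to 4. Same-numbered replicates did not deviate together (r of 0.06, -0.13 and -0.14 between the groups), so the numbers were not used as pairs; with a replicate block the calls were 6 from cMoP to Ly6Chi, without Vdr, and 0 in the knockout, and 0 for retention in both. Depth limits the retention test to 22 of 108 introns. The share of all genes or introns called in each setting was not set beside these counts. Their moves between settings are thus not read as traits of the receptors. Leaving out a replicate also leaves 1 library in its group.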
